A study of Homo sapiens with 14 samples.

Results

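Heat shock proteins are chaperones: they bind unfolded or partly folded proteins and help them fold, stay soluble or reach degradation. In the cytosol the HSP70 proteins work in a cycle with J-domain partners such as DNAJB1 and nucleotide exchange factors such as HSPH1 and BAG3, and pass some clients on to HSP90. In mitochondria the chaperonin HSPD1 (HSP60) and its lid HSPE1 (HSP10) fold imported proteins. Many of these genes are driven by heat shock factor 1 (HSF1), which binds repeats of the unit GAA when unfolded proteins accumulate. The genes described here were fixed by name as 10 rows of the count tables, out of 19923 genes: HSPA1A, HSPA1B, HSPA8, HSPH1, DNAJB1, BAG3, HSPB1, HSP90AA1, HSPD1 and HSPE1. All 10 were found.

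Polyadenylated RNA was sequenced from the MYCN-amplified neuroblastoma line SK-N-BE2 in 14 libraries that formed 7 groups of 2 replicates. Batch 1, as the labels call it, held cells of wild-type genotype that received H2O or CoCl2 at 10 or 50 µM. CoCl2, cobalt chloride, is widely used as a chemical mimic of hypoxia, and the labels give no exposure time. Batch 2 held untreated cells labelled WT and untreated cells labelled TET2KO 1, 2 and 3, where TET2 is an enzyme that oxidises methylated cytosine in DNA. All cells were grown in medium with heat-inactivated serum. How the knockouts were made is not given in the labels, nor whether each number is a clone or whether replicates were separate cultures, so the p-values measure the spread between these libraries, which may be technical. Each cobalt group was compared with H2O and each knockout group with WT, within its batch, and no test was made across batches.

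Library totals ran from 31214128 to 39540111 counts in batch 1 and from 52095024 to 59263320 in batch 2. Levels are given as CPM, counts per 1000000 of a library's counts in the genes tested, after TMM scaling between the libraries of a batch. Of 8 adrenergic neuroblastoma markers, 7 were at 1 CPM or more in every library of both batches. TET2 averaged 67.8 ± 4.30 CPM in WT, 78.5 ± 2.71 in TET2KO 1, 89.2 ± 2.67 in TET2KO 2 and 71.8 ± 5.08 in TET2KO 3 (SD, n = 2 each). Counts over a whole gene do not check an edit, so the knockouts are named as labelled. Summed markers of fibroblast-like cells were at 294 to 298 CPM in WT and at 102 to 119 CPM in the 6 knockout libraries, with 5 of 6 markers at 1 CPM or more in every batch 2 library and none at 0 throughout. In batch 1 the same sum was 68.0 to 68.3 CPM in H2O and 36.6 to 36.8 CPM at 50 µM, with 4 of 6 markers at 1 CPM or more throughout. Summed immune markers were at 5.72 to 5.90 CPM in H2O and 19.2 to 19.7 CPM at 50 µM, with 1 of 6 at 1 CPM or more throughout and ITGAM at 0. Summed endothelial markers were at 11.8 to 12.2 CPM in WT and 1.69 to 4.99 CPM in the knockouts, and summed epithelial markers were between 2.28 and 3.91 CPM in all 14 libraries, with KRT5 at 0. The part of these differences in the results was not tested. In RNA from a whole culture, fewer cells expressing a gene and less RNA per cell cannot be told apart.

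Together the 10 genes took 0.609% and 0.611% of all counts in H2O, 0.634% and 0.633% at 10 µM, and 0.565% and 0.567% at 50 µM. They took 0.804% and 0.817% in WT, 0.811% and 0.791% in TET2KO 1, 1.00% in both libraries of TET2KO 2, and 0.798% and 0.806% in TET2KO 3. The highest share was thus that of TET2KO 2 and the lowest that of 50 µM CoCl2.

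Levels were compared between genes only per kilobase of the exon length given in the files. In H2O the constitutive HSP70 gene HSPA8 was highest at 605 ± 0.889 CPM per kb (SD, n = 2), followed by the inducible HSP90 isoform HSP90AA1 at 318 and HSPD1 at 214. HSPE1 was at 72.1 CPM per kb, the small heat shock protein HSPB1 at 33.1, HSPH1 at 29.7, DNAJB1 at 21.9 and BAG3 at 17.4. The stress-inducible HSP70 genes were lowest, HSPA1B at 9.14 and HSPA1A at 3.67 CPM per kb. Each of these steps was larger than the SDs of the genes on either side. The constitutive HSP90 isoform HSP90AB1, not among the 10, was at 959.8 CPM per kb in H2O. In WT the order began with HSPA8 at 672, HSP90AA1 at 550 and HSPD1 at 303 CPM per kb. In TET2KO 2 HSP90AA1 stood above HSPA8, at 792 against 744 CPM per kb. The exon lengths join all exons of a gene, 5248 bases for HSP90AA1 and 4849 for HSPA8. The transcript of each gene that was searched for shared sequence had 3510 and 2463 bases. Per kilobase of those transcripts HSPA8 would stand above HSP90AA1 in TET2KO 2, so their order there depends on the length used. The SDs do not cover the choice of length.

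**Figure D1:**
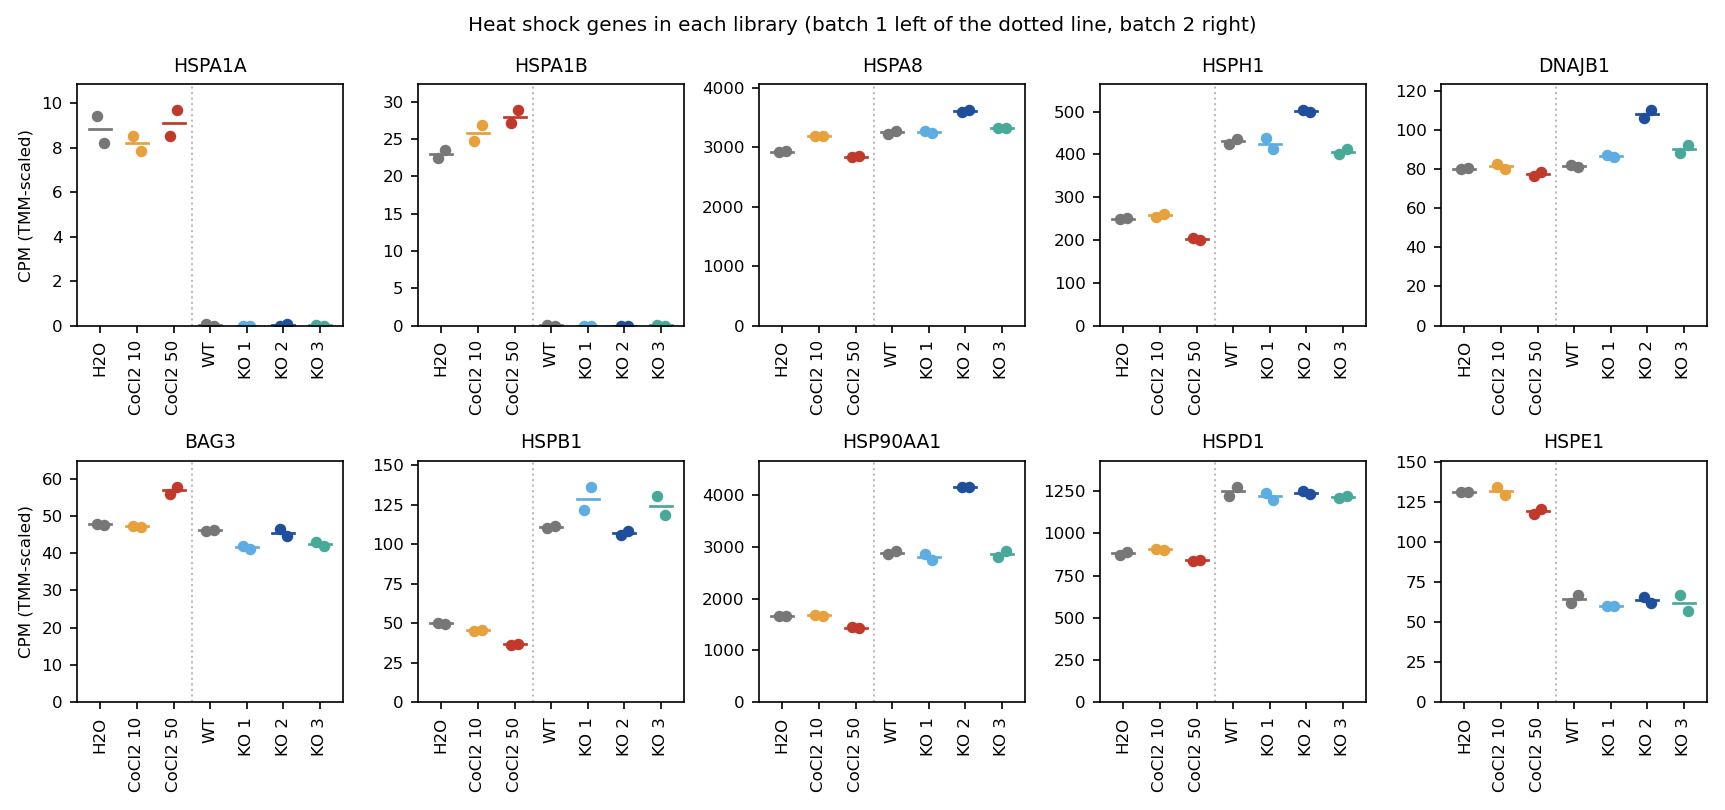
Level of each heat shock gene in every library. The y axis is CPM on scaled totals and starts at 0, each point is a library, and each short line is the mean of a group of 2. HSP90AA1 stands at 4156 and 4161 CPM in TET2KO 2, above every other library, and HSPA1A and HSPA1B lie at or near 0 in all of batch 2.

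The promoters of the genes were read for the letters that HSF1 is known to bind. RefSeq entries for all 10 genes, 14 in number, cover 250 bases before to 50 after a transcript start (GRCh38.p14). A pair of facing units, GAANNTTC or TTCNNGAA on either strand, was in 8 of the 14 entries and in 13.5% of 35116 promoters of the same length. A run of 3 units, GAANNTTCNNGAA or TTCNNGAANNTTC, which holds the pair within it, was in 3 of the 14 entries and in 0.49% of all promoters. The run of 3 is shown first for the genes that hold it, read along the gene's strand in windows of 30 bases with the matched units in capitals. Positions from the transcript start are negative before it.

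HSP90AA1: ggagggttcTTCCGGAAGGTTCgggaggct
HSPA8: gcgggccccTTCTGGAAGGTTCtaagatag
HSPD1: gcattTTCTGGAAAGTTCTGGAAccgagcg

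The HSP90AA1 window is chr14:102087112-102087141 on the minus strand and its match spans -88 to -76. The HSPA8 window is chr11:123062171-123062200 on the minus strand, with the match at -55 to -43, and a second run lies at -230 to -218. The HSPD1 window is chr2:197500061-197500090 on the minus strand, with matching letters from -245 to -228. All 3 windows lie within exons of the gene models in the count files, where other transcripts of these genes start further upstream. The pair of units is shown next for the inducible HSP70 genes, DNAJB1 and HSPB1, whose changes are described after them.

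HSPA1A: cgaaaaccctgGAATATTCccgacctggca
HSPA1B: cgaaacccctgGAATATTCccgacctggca
DNAJB1: cgggcggggcgGAAGGTTCtggagggggct
HSPB1: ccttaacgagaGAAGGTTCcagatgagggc

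HSPA1A is at chr6:31815426-31815455 and HSPA1B at chr6:31827622-31827651, both on the plus strand, with matches at -106 to -99 and -105 to -98. DNAJB1 is at chr19:14518456-14518485 on the minus strand, match at -77 to -70, with a second pair at -47 to -40. HSPB1 is at chr7:76302480-76302509 on the plus strand, match at -182 to -175. No match was found in the entries of HSPH1, BAG3 and HSPE1, which says only that these letters are not there. The HSPE1 entry begins at chr2:197500129, so the run shown for HSPD1 lies outside it. That run is also upstream of HSPE1, whose gene model in the count files starts at 197500140 on the plus strand. The core of the hypoxia response element, ACGTG or CACGT, was in the entries of HSPD1 and HSPE1 alone among the 10 genes and in 21.4% of all promoters. The entries of this pair overlap, and their matches are the same bases read from opposite strands. A match is a description of letters and not of binding.

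HSPA1A and HSPA1B encode the same inducible HSP70 protein from neighbouring single-exon genes (chromosome 6, 31815543 to 31817946 and 31827738 to 31830254, GRCh38 as in the files). Both were counted in every batch 1 library. HSPA1A had 369 and 326 counts in H2O, 300 and 306 at 10 µM, and 267 and 346 at 50 µM. HSPA1B had 879 and 935 counts in H2O, 870 and 1046 at 10 µM, and 848 and 1030 at 50 µM. In batch 2 HSPA1A had 4 and 0 counts in WT, 0 and 0 in TET2KO 1, 0 and 4 in TET2KO 2, and 1 and 0 in TET2KO 3. HSPA1B had 4 and 0 in WT, 1 and 0 in TET2KO 3, and 0 in the other 4 libraries. Neither gene passed the filter on low counts in batch 2. In the libraries at 0 that value allows up to 3 counts, or 0.0528 to 0.0576 CPM, for counting error only, and more if each fragment was counted as a pair of reads.

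The gap between batches was not limited to this pair. Within 1 Mb of HSPA1A, 44 of 96 genes were at 1 CPM or more in every batch 1 library. For 9 of the 44, HSPA1A and HSPA1B among them, every batch 2 library was more than 10 times below the lowest batch 1 library. The same held for 83 of 11871 genes elsewhere, or 0.699%. Genes were picked by their level in batch 1, so genes low there and high in batch 2 were not counted. HSPA1A and HSPA1B hold near-identical sequence. Of stretches of 50 bases, 72.6% in HSPA1A and 73.5% in HSPA1B also occur in transcripts of other genes (GENCODE release 29). Most of them are shared between the pair. Neighbouring genes were not searched in this way, and the part of shared sequence in the gap was not tested. The batches also differ in the version of the counting program, so batch, culture and counting cannot be told apart.

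**Figure D2:**
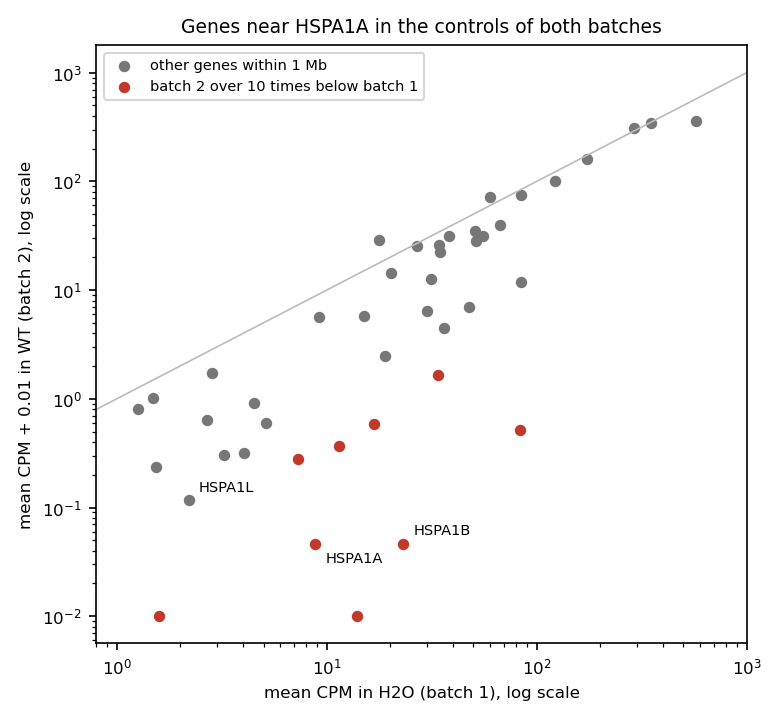
Genes within 1 Mb of HSPA1A that were at 1 CPM or more in every batch 1 library. The x axis is the mean CPM in H2O and the y axis the mean CPM in WT plus 0.01, both on log scales, and the line marks equal values. The 9 genes more than 10 times lower in batch 2, HSPA1A and HSPA1B among them, are in red.

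At 50 µM CoCl2 most of these genes were slightly lower than in H2O, and a pair of them was higher. HSPB1, HSPH1, HSP90AA1, HSPE1, HSPD1 and HSPA8 fell, by between 2.93% and 26.3%. HSPA1B and BAG3 rose by 21.8% and 19.2%. DNAJB1 and HSPA1A did not pass the test. In the quasi-likelihood test of edgeR, with p adjusted over all genes by the Benjamini-Hochberg method, 2 of 10 were called higher, where 30.4% of the 13636 genes tested were, and 6 of 10 lower, where 31.1% were. The median log2 fold change of the 10 was -0.06, against 0.0020 over all genes tested.

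HSPB1, a small heat shock protein that holds unfolded clients, stood at 50.2 and 49.3 CPM in H2O, 45.0 and 45.7 at 10 µM, and 36.4 and 36.9 at 50 µM. The 3 groups did not overlap, and each dose was lower than the one before it. Against H2O the log2 fold change was -0.44 at 50 µM (SE 0.04, edgeR adjusted p = 3.99e-20) and -0.13 at 10 µM (SE 0.04, edgeR adjusted p = 0.00472). The call at 10 µM was lost without H2O replicate 1 (edgeR adjusted p = 0.0588), without 10 µM replicate 1 (edgeR adjusted p = 0.0657) and in DESeq2 (adjusted p = 0.134). The drop from 10 to 50 µM was -0.31 on the log2 scale (SE 0.04, edgeR adjusted p = 5.83e-11).

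HSPH1, an HSP110 protein that exchanges nucleotide on HSP70, was at 249 and 251 CPM in H2O, 254 and 261 at 10 µM, and 204 and 201 at 50 µM. Only the 50 µM libraries stood below H2O. The log2 fold change at 50 µM was -0.30 (SE 0.02, edgeR adjusted p = 1.35e-29), and at 10 µM the value of 0.05 missed the threshold (SE 0.02, edgeR adjusted p = 0.070). HSP90AA1 was at 1666 and 1669 CPM in H2O, 1679 and 1668 at 10 µM, and 1444 and 1436 at 50 µM. The 10 µM and H2O libraries overlapped, and both 50 µM libraries were lower, by -0.21 on the log2 scale (SE 0.01, edgeR adjusted p = 5.44e-33).

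HSPA8, the constitutive HSP70, went opposite ways at the doses. It was at 2929 and 2935 CPM in H2O, 3196 and 3194 at 10 µM, and 2837 and 2855 at 50 µM. It rose by 8.97% at 10 µM (log2 0.12, SE 0.01, edgeR adjusted p = 2.72e-16) and fell by 2.93% at 50 µM (log2 -0.04, SE 0.01, edgeR adjusted p = 0.00169). Between the doses it differed by -0.17 on the log2 scale (SE 0.01, edgeR adjusted p = 1.79e-26). The mitochondrial pair was also lower at 50 µM. HSPD1 was at 873 and 893 CPM in H2O, 910.0 and 904 at 10 µM, and 839 and 841 at 50 µM. Its value at 50 µM was -0.07 (SE 0.01, edgeR adjusted p = 1.14e-05). At 10 µM its 0.04 just passed (SE 0.01, edgeR adjusted p = 0.0437) and no longer passed without H2O replicate 1 (edgeR adjusted p = 0.487), without 10 µM replicate 1 (0.241) or without 10 µM replicate 2 (0.155). HSPE1 was at 131 and 132 CPM in H2O, 135 and 129 at 10 µM, and 118 and 121 at 50 µM. It overlapped with H2O at 10 µM and fell by 9.16% at 50 µM (log2 -0.14, SE 0.03, edgeR adjusted p = 1.25e-06). HSPD1 and HSPE1 lie head to head on chromosome 2, and 17.9% of HSPE1's exon bases also belong to exons of HSPD1 or of the read-through gene HSPE1-MOB4. No strand option was used in counting, so reads there cannot be assigned to either strand.

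BAG3, a co-chaperone that links HSP70 to autophagy, was at 47.9 and 47.5 CPM in H2O, 47.3 and 47.1 at 10 µM, and 55.8 and 57.8 at 50 µM. Only the 50 µM libraries were above H2O (log2 0.25, SE 0.04, edgeR adjusted p = 6.56e-10). HSPA1B was at 22.5 and 23.6 CPM in H2O, 24.8 and 26.9 at 10 µM, and 27.1 and 28.8 at 50 µM, with no overlap between groups. Its log2 fold change was 0.28 at 50 µM (SE 0.05, edgeR adjusted p = 5.27e-07) and 0.17 at 10 µM (SE 0.05, edgeR adjusted p = 0.00842). Without H2O replicate 1 or without 10 µM replicate 2 the 10 µM call was lost (edgeR adjusted p = 0.134 and 0.323). HSPA1A was at 9.43 and 8.22 CPM in H2O, 8.54 and 7.87 at 10 µM, and 8.55 and 9.68 at 50 µM, and the groups overlapped (log2 0.05 at 50 µM, SE 0.09, edgeR adjusted p = 0.611). Because reads can be split between the copies, their counts were also summed: the sum was higher at 50 µM (log2 0.22, SE 0.04, edgeR adjusted p = 4.79e-06) and did not pass at 10 µM (log2 0.10, SE 0.04, edgeR adjusted p = 0.101). DNAJB1, the J-domain partner of HSP70, was at 80.0 and 80.2 CPM in H2O, 82.6 and 80.1 at 10 µM and 76.4 and 78.2 at 50 µM, and its -0.05 at 50 µM did not pass (SE 0.03, edgeR adjusted p = 0.154).

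At 10 µM, 3 of the 10 genes were called higher (HSPA8, HSPA1B and HSPD1), where 11.6% of all genes tested were, and 1 lower (HSPB1), where 11.1% were. Between 50 and 10 µM, 2 of 10 were called higher, where 26.2% of all genes were, and 7 of 10 lower, where 26.5% were. The weakest calls in that comparison were HSPA1B (log2 0.11, SE 0.05, edgeR adjusted p = 0.0496) and DNAJB1 (log2 -0.07, SE 0.03, edgeR adjusted p = 0.0479). The first was lost without 10 µM replicate 1 (0.46) or 50 µM replicate 2 (0.416), and the second without 10 µM replicate 1 (0.31) or 50 µM replicate 1 (0.221), all edgeR adjusted p. HSPA1A, not called between the doses (log2 0.16, edgeR adjusted p = 0.124), passed without 50 µM replicate 1 (0.0492). The comparisons with H2O share the H2O libraries.

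**Figure D3:**
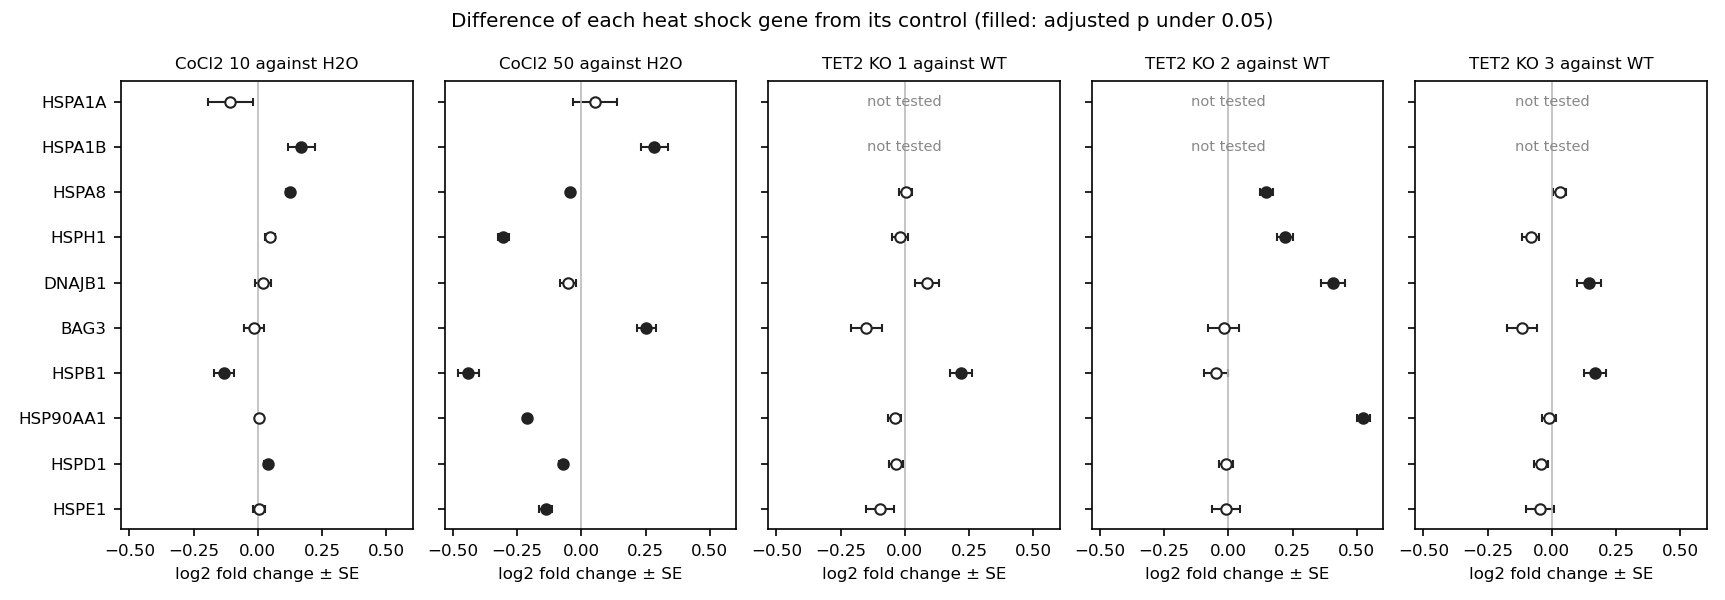
Log2 fold change of each heat shock gene from its control in 5 comparisons. Points are the edgeR estimate, bars 1 SE, and filled points have an adjusted p under 0.05. HSPB1 is at -0.44 at 50 µM CoCl2, and HSP90AA1 is at 0.53 in TET2KO 2.

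The other chaperones were read at 50 µM against the same shares over all genes tested, 30.4% higher and 31.1% lower. Of 14 chaperones of the endoplasmic reticulum (ER), 11 rose and 1 fell, with a median log2 fold change of 0.22. HSPA5 (BiP), the ER's HSP70, rose from 493 to 655 CPM (log2 0.41, SE 0.02, edgeR adjusted p = 2.59e-56). HYOU1, the ER's HSP110, was the member that fell (log2 -0.10, edgeR adjusted p = 2.31e-06). Of 14 subunits of the cytosolic chaperonin CCT and of prefoldin, which fold actin and tubulin, 3 rose and 9 fell, with a median of -0.12. CCT5 fell from 663 to 566 CPM (log2 -0.23, SE 0.02, edgeR adjusted p = 2.60e-29), and CCT4 rose slightly (log2 0.07, edgeR adjusted p = 2.82e-05).

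Of 31 further cytosolic chaperones and co-chaperones, 30 were tested, 7 rose and 13 fell, with a median of -0.07. Over all genes tested 30.4% rose and 31.1% fell. FKBP4, an HSP90 co-chaperone of steroid receptors, fell from 295 to 214 CPM (log2 -0.46, SE 0.02, edgeR adjusted p = 5.11e-50). The J-domain gene DNAJA4, at a low level, fell from 6.79 to 1.70 CPM (log2 -1.99, SE 0.14, edgeR adjusted p = 3.89e-29). The constitutive HSP90 gene HSP90AB1 fell less (log2 -0.11, SE 0.01, edgeR adjusted p = 3.84e-14) and BAG5, an HSP70 co-chaperone, rose (log2 0.22, SE 0.03, edgeR adjusted p = 2.44e-11). Of 12 other mitochondrial chaperones and proteases, 4 rose and 2 fell, near the first of those shares and below the second. The mitochondrial HSP70 gene HSPA9 fell (log2 -0.06, edgeR adjusted p = 1.59e-04) and the protease gene LONP1 rose (log2 0.20, edgeR adjusted p = 1.85e-18). Among the heat shock factors, HSF1 rose from 83.2 to 91.1 CPM (log2 0.13, SE 0.03, edgeR adjusted p = 7.17e-05) and HSF4 from 21.4 to 28.5 CPM (log2 0.42). HSF2 did not pass (log2 -0.05, edgeR adjusted p = 0.216), and HSBP1, a small protein that binds HSF1, fell (log2 -0.23, edgeR adjusted p = 4.70e-18).

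At 10 µM, 11.6% of all genes tested were called higher and 11.1% lower. The median log2 fold change was 0.04 in the ER list and 0.01 in the cytosolic list, against 0.22 and -0.07 at 50 µM. In the CCT and prefoldin list it was 0.02 against -0.12 at 50 µM, and in the mitochondrial list 0.04 against 0.03. Of the ER list 5 rose and none fell, with HSPA5 first (log2 0.15, SE 0.02, edgeR adjusted p = 4.87e-14). Of the CCT and prefoldin list 4 rose, of the mitochondrial list 3 rose, and of the cytosolic list 6 rose and 6 fell, the last from DNAJA4, a J-domain protein at 3.94 CPM against 6.79 in H2O (log2 -0.79, SE 0.11, edgeR adjusted p = 1.60e-09). These counts depended on single libraries: with any 1 of the 4 left out, 5 to 7 cytosolic genes and 1 to 2 CCT and prefoldin genes were called. Without H2O replicate 1 the ER count was 3 and the mitochondrial count 1. With all 14 libraries in 1 fit the cytosolic count was 2, the ER count was 3 and the CCT and prefoldin and mitochondrial counts were 0. In DESeq2 the cytosolic count was 3 and the CCT and prefoldin count 2.

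**Figure D4:**
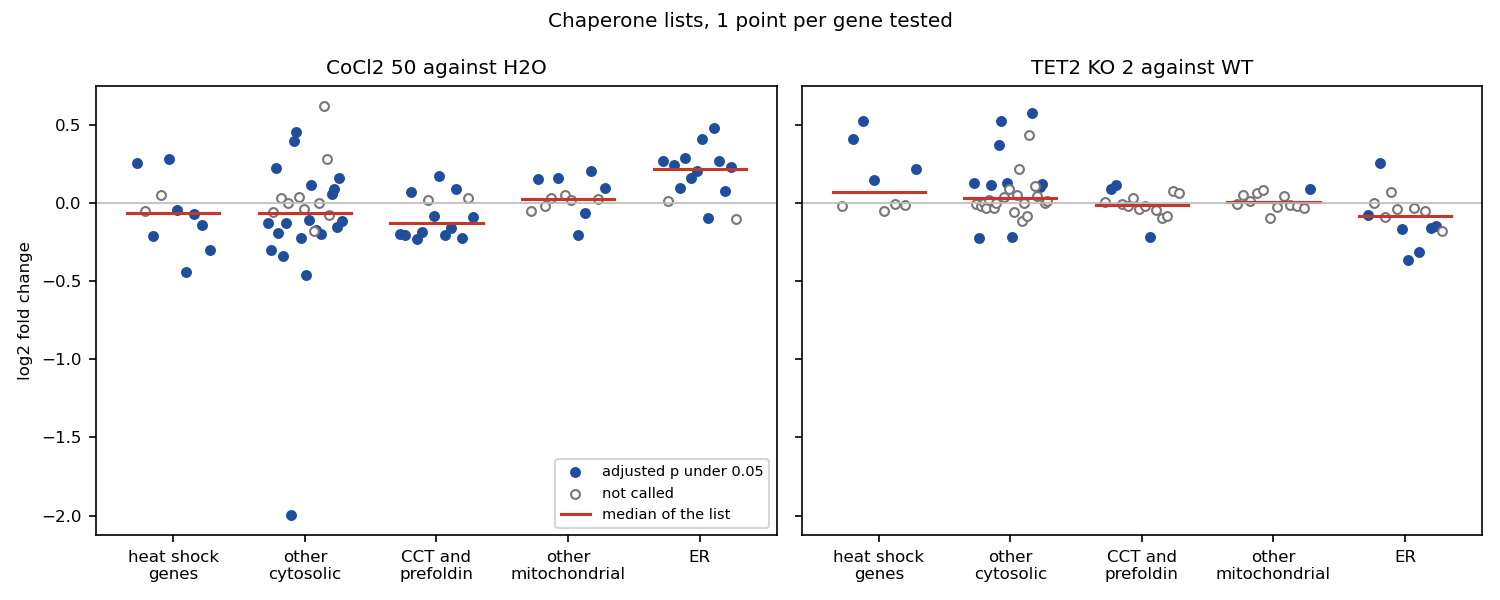
Log2 fold change of each tested gene in 5 chaperone lists, at 50 µM CoCl2 against H2O and in TET2KO 2 against WT. Each point is a gene, filled where the adjusted p is under 0.05, and the line is the median of its list. The ER list has a median of 0.22 at 50 µM and of -0.09 in TET2KO 2.

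Among the labelled knockouts the heat shock genes stood out in TET2KO 2, where HSP90AA1, DNAJB1, HSPH1 and HSPA8 rose by 44.0%, 32.6%, 16.5% and 10.8% over WT and none fell. Of the 8 genes tested in batch 2, 4 were called higher, where 12% of the 14061 genes tested were, and none lower, where 14.3% were. The median log2 fold change of the 8 was 0.07, against 0.0007 over all genes tested.

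HSP90AA1 was at 2860.2 and 2917 CPM in WT, 2866 and 2753 in TET2KO 1, 4156 and 4161 in TET2KO 2, and 2812 and 2922 in TET2KO 3. Both TET2KO 2 libraries stood above the other 6, which overlapped. Its log2 fold change from WT was 0.53 in TET2KO 2 (SE 0.03, edgeR adjusted p = 1.73e-48), -0.04 in TET2KO 1 (edgeR adjusted p = 0.331) and -0.01 in TET2KO 3 (edgeR adjusted p = 0.840). DNAJB1 was at 81.9 and 81.2 CPM in WT, 86.8 and 86.2 in TET2KO 1, 106 and 109.9 in TET2KO 2, and 88.2 and 92.1 in TET2KO 3. All 6 knockout libraries were above WT, and the calls were for TET2KO 2 (log2 0.41, SE 0.05, edgeR adjusted p = 1.60e-14) and TET2KO 3 (log2 0.14, SE 0.05, edgeR adjusted p = 0.017). The TET2KO 3 call was lost without WT replicate 1 (edgeR adjusted p = 0.0689), without WT replicate 2 (0.0934) and without TET2KO 3 replicate 2 (0.143).

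HSPH1 was at 425 and 436 CPM in WT, 437 and 413 in TET2KO 1, 503 and 499.9 in TET2KO 2, and 400.0 and 413 in TET2KO 3. The TET2KO 2 libraries were above all others (log2 0.22, SE 0.03, edgeR adjusted p = 2.25e-09), and TET2KO 3, below WT in both libraries, missed the threshold (log2 -0.08, SE 0.03, edgeR adjusted p = 0.056). It passed without TET2KO 3 replicate 2 (edgeR adjusted p = 0.0468) and with all 14 libraries in 1 fit (0.0257). HSPA8 was at 3233 and 3283 CPM in WT, 3281 and 3249 in TET2KO 1, 3592 and 3626 in TET2KO 2, and 3332 and 3324 in TET2KO 3. It was called in TET2KO 2 (log2 0.15, SE 0.03, edgeR adjusted p = 8.34e-07).

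HSPB1 followed another order. It was at 110.0 and 112 CPM in WT, 121 and 136 in TET2KO 1, 106 and 108 in TET2KO 2, and 130.1 and 118 in TET2KO 3. It rose by 16.4% in TET2KO 1 (log2 0.22, SE 0.04, edgeR adjusted p = 3.37e-05) and by 12.4% in TET2KO 3 (log2 0.17, SE 0.04, edgeR adjusted p = 0.00216), and did not pass in TET2KO 2 (log2 -0.05, SE 0.04, edgeR adjusted p = 0.472). The call in TET2KO 1 was lost without its replicate 2 (log2 0.13, edgeR adjusted p = 0.107) and that in TET2KO 3 without its replicate 1 (log2 0.10, edgeR adjusted p = 0.250). The 1 call higher in TET2KO 1 stood where 7.79% of all genes were called higher and 9.72% lower. The 2 in TET2KO 3 stood where 8.9% were called higher and 9.96% lower.

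The remaining 3 genes passed in none of the knockouts. HSPD1 ranged from 1201 to 1277 CPM over all 8 libraries and HSPE1 from 57.2 to 67.0. BAG3 was at 46.0 and 46.2 CPM in WT, 41.9 and 41.2 in TET2KO 1, 46.5 and 44.5 in TET2KO 2, and 43.1 and 41.9 in TET2KO 3. It was below WT in 5 of 6 knockout libraries, with the lowest adjusted p at 0.0667 in TET2KO 1 (edgeR), which passed with all 14 libraries in 1 fit (0.0198).

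A joint test of the 3 knockout numbers asked whether they differed from each other. It called 5 of the 8 genes, where 37.6% of all genes were called. The distance between the highest and lowest of the 3 log2 fold changes was 0.57 for HSP90AA1 (edgeR adjusted p = 2.38e-61), 0.32 for DNAJB1 (2.13e-10), 0.30 for HSPH1 (5.45e-17), 0.27 for HSPB1 (1.39e-07) and 0.14 for HSPA8 (9.17e-07). The mean of the 3 knockout groups was called higher than WT for 4 of the 8 genes. Over all genes, 7.54% were called higher and 11.4% lower. Only DNAJB1 among the 4 had all knockout libraries above WT (log2 0.21, SE 0.04, edgeR adjusted p = 2.43e-06). For HSP90AA1 the mean was 0.16 (SE 0.02, edgeR adjusted p = 2.68e-10), with the values of TET2KO 1 and 3 below 0. The mean for HSPA8 (0.06, edgeR adjusted p = 0.0307) was no longer called without either WT library, either TET2KO 2 library or TET2KO 1 replicate 1 (edgeR adjusted p from 0.055 to 0.262). That for HSPB1 (0.11, edgeR adjusted p = 0.0161) was no longer called without either WT library, TET2KO 1 replicate 2 or TET2KO 3 replicate 1 (edgeR adjusted p from 0.0738 to 0.179). With the 6 knockout libraries under 1 coefficient, an alternative chosen after the results were seen, none of the 8 was called.

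The other chaperones of TET2KO 2 were read against the shares over all genes tested, 12% higher and 14.3% lower. Of 30 cytosolic chaperones tested 8 rose and 2 fell. The smallest adjusted p among those that rose was that of DNAJB4, a J-domain protein, from 15.8 to 22.7 CPM (log2 0.52, SE 0.09, edgeR adjusted p = 1.06e-07), and among those that fell that of FKBP4 (log2 -0.21, SE 0.03, edgeR adjusted p = 2.17e-08). That count of 10 fell to 4 without WT replicate 1 and to 5 without TET2KO 2 replicate 1. HSP90AB1 did not pass (log2 -0.06, edgeR adjusted p = 0.105). Of the 14 ER chaperones 1 rose and 6 fell, with HSPA5 from 797 to 618 CPM (log2 -0.37, SE 0.03, edgeR adjusted p = 2.87e-24). Of the 14 CCT and prefoldin genes 2 rose and 1 fell, and of the 12 mitochondrial genes 1 rose. These counts were near or below the shares over all genes. The first count of 3 went to 1 without WT replicate 1 or TET2KO 2 replicate 1, and the second to 0 without either WT library, without TET2KO 2 replicate 2 or with the replicate block. HSPA9 did not pass (log2 -0.01, edgeR adjusted p = 0.787). HSF1 (log2 0.01, edgeR adjusted p = 0.934) and HSF2 (log2 0.08, edgeR adjusted p = 0.353) did not pass, and HSF4 fell from 16.0 to 11.2 CPM (log2 -0.51, SE 0.10, edgeR adjusted p = 9.26e-06).

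In TET2KO 1 the cytosolic list had 3 of 30 genes higher and 3 lower, near the 7.79% and 9.72% over all genes. In TET2KO 3 it had 6 higher and 2 lower, where 8.9% and 9.96% of all genes were. The first count of 6 dropped to 3 without TET2KO 1 replicate 2, and the second of 8 to 5 without WT replicate 1 or TET2KO 3 replicate 1. By smallest adjusted p the first of the higher ones was DNAJB5 in both (log2 0.31 and 0.27), and the first of the lower ones CHORDC1, an HSP90 co-chaperone (log2 -0.26 and -0.16). The CHORDC1 call in TET2KO 3 was lost without TET2KO 3 replicate 1 (edgeR adjusted p = 0.0724). HSP90B1 (GRP94), the ER's HSP90, fell in both (log2 -0.16 and -0.19). CCT3 rose in both (log2 0.11 and 0.10), and its call in TET2KO 3 was lost without WT replicate 1 (edgeR adjusted p = 0.081) or TET2KO 3 replicate 1 (0.0507). HSF1 and HSF2 did not pass in either, with edgeR adjusted p from 0.238 to 0.983. The knockout comparisons share the WT libraries.

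As a description over 14 libraries, each set against the mean of its batch's controls, members were paired with the most similar other gene. HSPB1 was nearest to SRM (spermidine synthase, Pearson r = 0.99), HSP90AA1 to EIF5 (r = 0.97), HSPH1 to ATF7IP (r = 0.97), BAG3 to C4orf54 (r = 0.97), DNAJB1 to NPY (r = 0.94), HSPD1 to RIOK1 (r = 0.94), HSPA8 to SOX11 (r = 0.93) and HSPE1 to SMIM26 (r = 0.84). Between members, DNAJB1 and HSP90AA1 had r = 0.92 and HSPB1 and BAG3 r = -0.94. All points share the control libraries and their batches.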

How the data were processed

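The files the authors deposited hold raw counts, 1 row per gene symbol. Per the file headers, the authors counted exons of GENCODE release 33 genes (GRCh38) with featureCounts, version 1.5.3 for batch 1 and 2.0.5 for batch 2, with the paired-end option and no strand option. The submitters' processing notes name Trimmomatic 0.36, STAR 2.6.1d and Subread 1.5.3, with no role or order. Among counts from 1 to 10, 39.0% to 42.3% were even in batch 1 and 77.3% to 80.5% in batch 2, so most fragments in batch 2 may have been counted as a pair of reads and its depth is overstated. Per the labels' protocols, libraries were strand-specific and oligo-dT based.

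Genes with low counts were removed (filterByExpr by group), leaving 13636 genes in batch 1 and 14061 in batch 2. Each batch was fitted on its own with edgeR 4.0.16 in R 4.3.3: TMM scaling, and the robust quasi-likelihood test with a dispersion floor of 0.0001001. P-values were adjusted over all genes tested and called under 0.05. The fit was tested on simulated data. DESeq2 1.42.0, other scalings and filters, a replicate block and leaving out libraries were alternatives.

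No pair of replicates held identical counts within sampling noise, so none was treated as 1 library deposited more than once. Chi-square per gene was 1.23 to 1.46 in batch 1 and 3.86 to 5.52 in batch 2, where counting reads in place of fragments would raise it. The genes and lists were chosen with earlier results of these data known. The named genes were all 10 heat shock genes, HSF1, HSF2, HSPA9, HSPA5, HSP90AB1, and, for each list and comparison, the called gene with the smallest adjusted p in each direction. HSPA1A and HSPA1B failed the filter in batch 2. Promoter sequences are from RefSeq (GRCh38.p14), and shared stretches were searched in GENCODE release 29 transcripts. Intervals and limits for 0 counts cover counting error only.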

Additional observations from a re-analysis of the deposited data

Results flagged for a closer look

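The difference from WT depended on the knockout number for 5 of the 8 heat shock genes tested, by a joint edgeR test of the 3 labelled knockout groups, adjusted over all genes. The same test called 37.6% of the 14061 genes tested. The gap between the largest and smallest log2 fold change was 0.57 for HSP90AA1, 0.32 for DNAJB1, 0.30 for HSPH1 and 0.14 for HSPA8, each with TET2KO 2 highest. For HSPB1 the gap was 0.27, with TET2KO 2 lowest and TET2KO 1 highest. Groups of 2 libraries are too small for a check of single outlying samples.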

How the results depend on the processing

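Of 37 calls for the 10 genes, 25 kept their direction and their side of the threshold under all alternatives run. At 10 µM the count of called members went from 4 to 1 in DESeq2 and to 1 with all 14 libraries in 1 fit, and to between 1 and 4 with 1 library left out. The count of genes there went from 3098 to 1122 in DESeq2, 796 in the joint fit and 1860 to 2258 with 1 library left out. In the joint fit 4674 genes, not 7198, differed between the doses and 2 members, not 1, were called in TET2KO 1. With 1 library left out, 0 to 1 members and 1375 to 1920 genes were called in TET2KO 1 (2462 in the fit reported), 2406 to 2828 genes in TET2KO 2 (3698), 1 to 2 members and 1568 to 2390 genes in TET2KO 3 (2653), and 2 to 4 members and 1587 to 2703 genes for the knockout mean (2656). With the 6 knockout libraries under 1 coefficient, chosen after seeing the data, 0 members and 256 genes were called. HSPA1B, HSPB1 and HSPD1 lost their 10 µM calls in the joint fit (edgeR adjusted p = 0.227, 0.261 and 0.442) and in DESeq2 (adjusted p = 0.191, 0.134 and 0.131). Between the doses HSPA1B lost its call without the filter (edgeR adjusted p = 0.0952), with the legacy test (0.0585) and with no dispersion floor (0.0524). HSPA1B and DNAJB1 between the doses also lost their calls in DESeq2 (adjusted p = 0.267 and 0.216) and in the joint fit (edgeR adjusted p = 0.277 and 0.201). HSPB1 lost its call for the knockout mean in DESeq2 (adjusted p = 0.067). Same-numbered replicates did not deviate together (r from -0.039 to 0.037). The replicate block ended 3 member calls: HSPD1 at 10 µM (log2 0.04, edgeR adjusted p = 0.0775), and HSPA1B (0.11, 0.0535) and DNAJB1 (-0.07, 0.0563) between the doses. No other member call changed under the block. With 1 library left out, log2 fold changes that were not called changed sign. The ranges at 10 µM were HSF2 -0.014 to 0.0485, DNAJB1 -0.0001 to 0.0426 and HSPE1 -0.023 to 0.0334. The range at 50 µM was HSPA1A -0.0454 to 0.1529. The ranges in TET2KO 1 were HSF2 -0.0278 to 0.0234, HSPA8 -0.0061 to 0.0139, HSPH1 -0.0597 to 0.0239, HSPA9 -0.0646 to 0.0137, HSPA5 -0.0544 to 0.0017 and HSP90AB1 -0.0278 to 0.009. The ranges in TET2KO 2 were HSF1 -0.0536 to 0.0662, HSPD1 -0.0448 to 0.0136, HSPE1 -0.0691 to 0.0383, HSPA9 -0.0591 to 0.0193 and BAG3 -0.0504 to 0.0111. The ranges in TET2KO 3 were HSP90AA1 -0.0347 to 0.0194, HSPE1 -0.1674 to 0.0635 and HSPA9 -0.0652 to 0.013. The ranges for the knockout mean were HSPE1 -0.1054 to 0.0019 and HSPA9 -0.0629 to 0.0153. HSF2 in TET2KO 1 also changed sign in the joint fit (0.0051).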
